A study of Mus musculus with 13 samples.

Results

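The colon of tumour-bearing mice that drank vancomycin was compared with the colon of tumour-bearing mice that received no antibiotic, across every probe set that the array annotation paired with exactly 1 gene symbol. These are 19572 of the 28846 probe sets on the array, and they stand for 19505 genes. The members were chosen by tissue and treatment labels alone: 3 vancomycin arrays and 4 no-antibiotic arrays, 7 of the 13 arrays of the study. All mice were female FVB animals carrying a mammary carcinoma with human HER2, a receptor tyrosine kinase of the ErbB family, so the controls bore the tumour too. The treated mice had 200 mg/L vancomycin in their water from 4 weeks of age. The labels put the end at 9 weeks, without saying whether this counts age or treatment, when tumours measured 150 mm3. The colon was washed and frozen, and the labels do not say which segment of it an array holds. No cell sorting is described, so each value is an average over epithelium, immune cells, connective tissue and muscle. The remaining 6 arrays are of the ileum under the same treatments, 3 with vancomycin and 3 without.

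Vancomycin is a glycopeptide that blocks cell wall synthesis in Gram-positive bacteria, and taken by mouth it is hardly absorbed. Many of the bacteria that ferment fibre to short-chain fatty acids in the colon are Gram-positive. The colonic epithelium renews itself from crypt stem cells and holds absorptive colonocytes, goblet cells that secrete mucus, and scarce enteroendocrine cells that sense the gut content and release hormones and serotonin. Plasma cells under the epithelium make the IgA that is exported into the lumen.

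Values below are the log2 expression values that the authors deposited, 1 per probe set and array, and a change is the vancomycin mean minus the no-antibiotic mean on that scale, with its standard error (SE) from limma. A difference of 1 is nominally a doubling. A change is said to have passed when its Benjamini-Hochberg adjusted p over all 19572 probe sets was under 0.05. Nothing in the labels says that each array is a different animal, so a p-value weighs a change against the scatter of these samples, part of which may be technical. The tissue label was borne out by Car1, a carbonic anhydrase of surface colonocytes, which had values of 16.52, 16.05 and 16.29 in vancomycin colons and 17.3, 17.42, 16.99 and 17.04 in no-antibiotic colons, while the 6 ilea had 6.4 to 8.38. Insl5, a peptide hormone of distal colon enteroendocrine cells, lay between 14.7 and 15.92 in the 7 colons and between 8.09 and 8.61 in the ilea.

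The 7 colon arrays did not fall into 2 clean groups. Vancomycin replicate 11 correlated better with every no-antibiotic array (Pearson r across genes 0.9881 to 0.9922) than with the other vancomycin arrays (0.9873 for each). On the first principal component, which held 40.5% of the variance, the vancomycin replicates 11, 13 and 14 stood at -3.51, 34.39 and 38.98, and the no-antibiotic replicates 1, 2, 3 and 5 at -35.0, -6.13, 1.25 and -29.99. Replicate 11 of the vancomycin group thus lay among the no-antibiotic colons. Among no-antibiotic colons, replicate 3 was the nearest to the vancomycin side.

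A second division ran across the treatments. Hoxd10, Hoxd11 and Hoxd13 belong to the posterior Hox genes, whose activity marks position along the gut. Hoxd13 had values of 5.69, 8.03 and 5.97 in vancomycin colons and 5.23, 8.46, 5.8 and 5.66 in no-antibiotic colons, so 1 array of each group, vancomycin replicate 13 and no-antibiotic replicate 2, stood apart. The same 2 arrays were highest for Hoxd10 (9.81 and 9.75, against 6.42 to 8.29 in the other 5) and for Hoxd11 (9.07 and 9.63, against 6.69 to 7.84). The 11 measured posterior Hox genes did not all follow. Hoxb13 was also highest in these 2 arrays (13.19 and 13.8), whereas Hoxb9 (10.14 and 10.23) and Hoxa11 (6.7 and 6.99) were lowest in them. The same 2 arrays also had the lowest smooth muscle list means, 12.85 and 12.72, where the other arrays ran from 13.43 to 13.80. Whether the arrays hold different segments of the colon was not tested. Below, the medians of several lists are also given without both arrays.

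**Figure D1:**
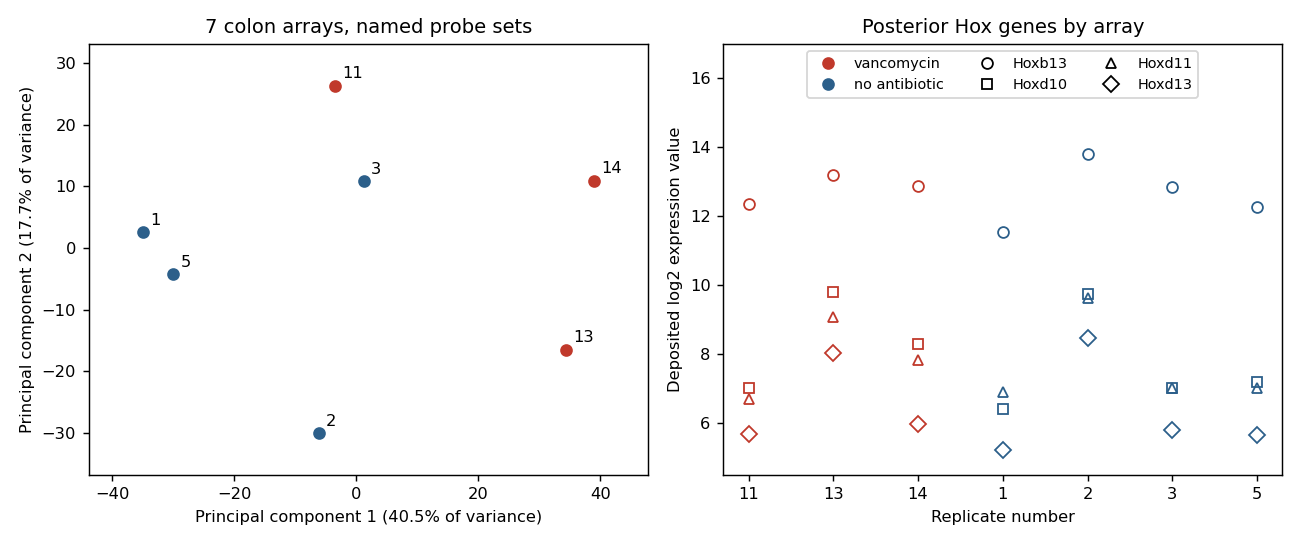
Left, the 7 colon arrays on the first 2 principal components of the named probe sets, labelled by replicate number, with vancomycin in red and no antibiotic in blue. Right, deposited log2 values of 4 posterior Hox genes in each array; Hoxd10, Hoxd11 and Hoxd13 are highest in vancomycin replicate 13 and no-antibiotic replicate 2.

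In the comparison of 3 vancomycin with 4 no-antibiotic colons, 2 genes fell and 0 rose past the threshold, 0.0102% of the probe sets tested. The 2 are Ly6g6c and Fam162b. The background was wide all the same: 3107 probe sets (15.9%) had an unadjusted p under 0.05, 1519 higher (7.76%) and 1588 lower (8.11%) with vancomycin, and 2405 (12.3%) had no overlap between the groups, 1315 higher (6.72%) and 1090 lower (5.57%). Large changes were mostly downward. A change beyond 1 on the log2 scale was found for 27 probe sets above and 154 below zero, whereas the median change over all probe sets was 0.02 with the bulk of them close to zero.

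Ly6g6c encodes a small lipid-anchored surface protein of the Ly6 family, and the gene lies in the class III region of the major histocompatibility complex. Its values were 7.57, 7.73 and 7.88 in vancomycin colons, against 10, 9.19, 9.5 and 9.03 in no-antibiotic colons. The highest vancomycin array was more than 1 unit below the lowest control. The means were 7.73 ± 0.155 (SD, n = 3) and 9.43 ± 0.427 (SD, n = 4), and the change was -1.70 ± 0.21 (SE), adjusted p = 0.0212 in limma. In the ileum the values were 7.19, 7.45 and 7.81 with vancomycin and 7.53, 7.55 and 7.36 without, a change of 0.0033 ± 0.2267 (SE). Vancomycin colons were therefore near the level of both ileal groups, and the difference between the tissues' changes was -1.71 ± 0.31 (SE), with an adjusted p of 0.0442. That difference passed in 1 of the 7 fits that leave out a colon array, with an adjusted p up to 0.139 in the others.

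Fam162b had values of 5.44, 5.3 and 5.48 in vancomycin colons, against 6.22, 6.5, 6.44 and 6.26 in no-antibiotic colons. It is a dim probe set with a small spread in both groups. Its vancomycin values lie under the mean of the dimmest class of probe sets described below (5.67) and, without a detection call for the arrays, are not shown to be above background, so the change describes the deposited scale only. The means were 5.41 ± 0.0945 (SD, n = 3) and 6.355 ± 0.136 (SD, n = 4), a change of -0.95 ± 0.12 (SE) with an adjusted p of 0.0212. In the ileum it lay between 5.46 and 5.69 in all 6 arrays, and the difference between the tissues' changes, -0.845 ± 0.18 (SE), did not pass (adjusted p = 0.11).

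The sequences around the annotated starts of the 2 genes that fell, and of Ffar4, which had a larger measured change than either, are shown because no other feature of these genes can be read from the array. They are taken from RefSeq on GRCm38.p6, on the strand of the gene, from 250 bases before to 50 after the start. Capitals mark 3 motifs searched on either strand: TATAAA (the core of a TATA box), CCAAT (a box bound by NF-Y) and CACGTG (an E-box).
Ly6g6c, chr17:35067075-35067374, plus strand: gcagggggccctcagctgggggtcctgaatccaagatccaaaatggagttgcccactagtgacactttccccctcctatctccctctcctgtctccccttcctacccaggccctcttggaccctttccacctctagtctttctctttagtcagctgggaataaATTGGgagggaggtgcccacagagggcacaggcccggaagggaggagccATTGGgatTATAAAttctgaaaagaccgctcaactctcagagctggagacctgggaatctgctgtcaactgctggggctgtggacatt
Fam162b, chr10:51590411-51590710, minus strand: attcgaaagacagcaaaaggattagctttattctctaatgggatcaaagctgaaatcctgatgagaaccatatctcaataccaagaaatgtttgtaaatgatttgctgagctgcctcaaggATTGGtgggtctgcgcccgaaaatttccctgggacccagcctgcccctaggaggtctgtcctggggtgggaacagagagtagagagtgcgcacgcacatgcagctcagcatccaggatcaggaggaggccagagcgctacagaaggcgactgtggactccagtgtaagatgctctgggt
Ffar4, chr19:38096829-38097128, plus strand: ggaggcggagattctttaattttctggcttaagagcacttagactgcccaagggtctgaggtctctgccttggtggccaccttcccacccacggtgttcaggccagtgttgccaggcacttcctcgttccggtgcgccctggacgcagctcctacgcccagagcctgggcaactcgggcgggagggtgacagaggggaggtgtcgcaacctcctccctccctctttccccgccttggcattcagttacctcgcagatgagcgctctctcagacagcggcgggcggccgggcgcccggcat
The Ly6g6c window holds TATAAA starting 30 bases before the start, where a TATA box usually lies. It also holds ATTGG, the reverse complement of CCAAT, at 87 and 38 bases before the start. Fam162b holds the reverse complement of CCAAT at 129 bases before the start, and Ffar4 holds none of the 3 motifs. Over all 32851 such windows, 13.6% hold TATAAA, 37.4% CCAAT and 7.15% CACGTG. These shares count a motif anywhere in the window on either strand and not at a given position. The matches describe the windows only.

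Ly6g6c sits in a cluster of related genes on chromosome 17, and its neighbours did not move as 1 block. Ly6g6e, another Ly6 gene, had values of 6.43, 6.67 and 6.6 in vancomycin colons and 7.43, 8.16, 7.05 and 8.28 in no-antibiotic colons, a change of -1.16 ± 0.24 (SE, adjusted p = 0.0968). Between Ly6g6c and Ly6g6e lies Ly6g6d, which was on the other side: 11.99, 11.72 and 12.17 in vancomycin colons, against 11.57, 11.54, 11.49 and 11.07 in no-antibiotic colons, a change of 0.54 ± 0.18 (adjusted p = 0.185). Ly6g6f (-0.46 ± 0.18, adjusted p = 0.24) and Ddah2, which degrades methylated arginines (-0.92 ± 0.31, adjusted p = 0.194), were lower without passing. Abhd16a (0.39 ± 0.12, adjusted p = 0.18) and Ly6g5c (0.37 ± 0.16, adjusted p = 0.278) were higher without passing. These neighbours are named because of their position, after their values were seen. Of 26 measured members of the Ly6 family, 10 had a higher and 16 a lower mean, with a median change of -0.07, and Ly6g6c was the only member past the threshold. The 6 genes on each side of Fam162b on chromosome 10 had changes between -0.51 and 0.25, and none passed.

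The next genes in order of p did not pass. Including the 2 above, 92 probe sets had an adjusted p under 0.1, 43 higher and 49 lower. The genes named next by p, in both directions, were picked only among genes whose groups do not overlap, predicted genes left out. Their separation is therefore a condition of the choice and not a result. Srm, spermidine synthase, had values of 9.82, 9.6 and 9.26 in vancomycin colons, against 10.61, 10.71, 10.56 and 10.49 in no-antibiotic colons (-1.03 ± 0.15 SE, adjusted p = 0.0637). Ffar4, which senses long-chain fatty acids on enteroendocrine and other cells, had 9.04, 7.82 and 7.5 in vancomycin colons, against 11.6, 10.02, 9.63 and 10.49 in no-antibiotic colons (-2.315 ± 0.40, adjusted p = 0.0968). Nectin1, a cell adhesion protein, had 8.68, 8.11 and 8.27 in vancomycin colons, against 9.26, 9.17, 9.17 and 9.32 in no-antibiotic colons (-0.88 ± 0.15, adjusted p = 0.0968). In all 3 genes vancomycin replicate 11 was the highest treated array. Foxa3, a forkhead transcription factor, was lower too (-1.31 ± 0.24), as were Pf4, a platelet chemokine (-1.41 ± 0.26), Lgals9, galectin-9 (-0.93 ± 0.16), Kcnk1, a potassium channel (-0.85 ± 0.15), Riiad1 (-0.96 ± 0.17) and Tmem248 (-0.74 ± 0.13).

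Under the same rule, the genes with higher means and the smallest p had changes between 0.60 and 1.21. Luc7l2, a protein of the U1 splicing particle, had 11.86, 11.63 and 11.8 in vancomycin colons, against 10.98, 11.05, 11.02 and 10.93 in no-antibiotic colons (0.77 ± 0.12 SE, adjusted p = 0.0968). Cflar, which restrains caspase-8, had 12.85, 12.89 and 13.22 in vancomycin colons, against 12.21, 11.67, 11.78 and 12.38 in no-antibiotic colons (0.98 ± 0.18, adjusted p = 0.0968). Pus10, a pseudouridine synthase, had 12.75, 12.81 and 12.8 in vancomycin colons, against 11.96, 12.14, 12.08 and 12.1 in no-antibiotic colons (0.72 ± 0.13, adjusted p = 0.0968). That every treated array lay above every control in these genes follows from the rule that chose them. Zfp867 (0.80 ± 0.14), Zfp280c (0.95 ± 0.18), Ankrd44 (1.01 ± 0.19), Map3k1, a stress kinase (1.00 ± 0.19), Rapgefl1 (0.88 ± 0.16), Ccdc9 (1.21 ± 0.23), Slc9b1 (1.19 ± 0.23), Spin2d (0.60 ± 0.12) and Cym, the protease chymosin (1.06 ± 0.21), complete the first 12 under that rule, none past the threshold. Slc9b1 and Spin2d are dim, with no-antibiotic values of 5.3 to 5.74 and 5.37 to 5.56. Like those of Fam162b, these values are not shown to be above background.

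**Figure D2:**
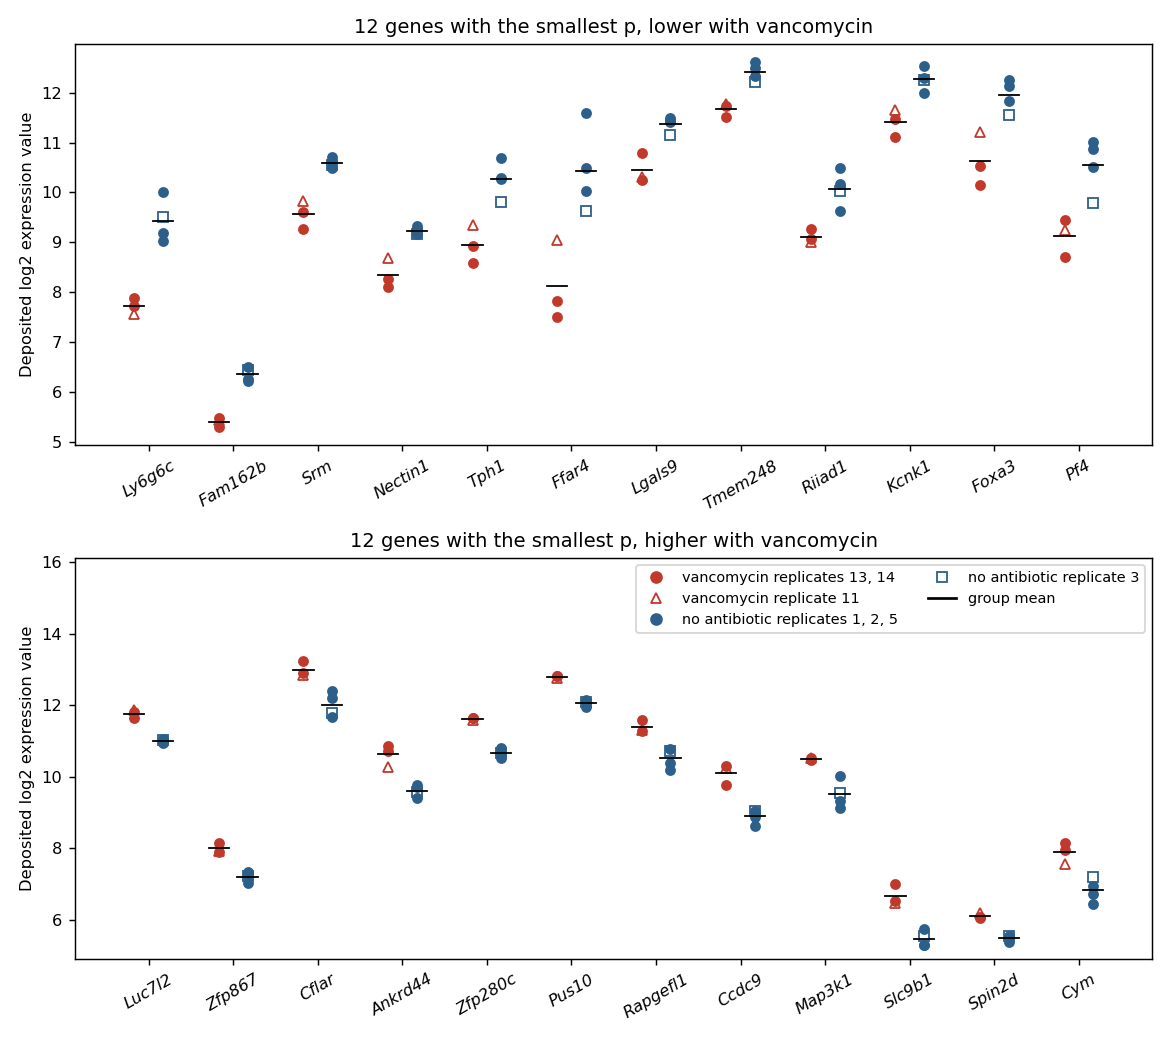
Deposited log2 values of the 12 genes per direction with the smallest p among genes whose groups do not overlap, each array as a point, vancomycin in red on the left and no antibiotic in blue on the right of each gene, with group means as bars. Ly6g6c and Fam162b are the 2 past the threshold; the open triangle (vancomycin replicate 11) and open square (no-antibiotic replicate 3) are often the arrays nearest the other group.

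The 6 largest differences without overlap among genes with an unadjusted p under 0.01, predicted genes left out, were those of Tpsg1, Cyp2c55, Ffar4, Irf7, Clca4a and Fkbp11 and were all lower with vancomycin. Tpsg1, a membrane-anchored tryptase, had 10.3, 8.39 and 7.5 in vancomycin colons, against 11.78, 10.53, 10.81 and 11.82 in no-antibiotic colons (-2.505 ± 0.53 SE, adjusted p = 0.0968). Cyp2c55, a cytochrome P450 of the colon, had 14.31, 12.65 and 14.83 in vancomycin colons, against 16.73, 16.11, 16.41 and 16.1 in no-antibiotic colons (-2.41 ± 0.65, adjusted p = 0.143). Clca4a, a chloride channel regulator, had 11.5, 12.22 and 13.18 in vancomycin colons, against 14.33, 13.9, 14.55 and 14.24 in no-antibiotic colons (-1.955 ± 0.56, adjusted p = 0.16). In these genes the treated arrays were more spread out than the controls. Fkbp11, a folding enzyme of the endoplasmic reticulum of secretory cells, was lower by 1.77 ± 0.39 (adjusted p = 0.0989). The largest higher mean without overlap was that of Apol7d, with 8.74, 8.94 and 8.29 in vancomycin colons, against 6.79, 5.84, 7.16 and 7.82 in no-antibiotic colons (1.75 ± 0.40, adjusted p = 0.106), followed by Olfr1287, an olfactory receptor (1.27 ± 0.28, adjusted p = 0.0968). The no-antibiotic values of Olfr1287, 4.92 to 5.68, are not shown to be above background.

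Which colon arrays entered the fit decided how many genes passed. Without no-antibiotic replicate 3, 217 probe sets passed, 84 higher and 133 lower (1.11% of those tested; 0.429% higher and 0.68% lower), and without vancomycin replicate 11, 109 passed, 26 higher and 83 lower (0.557%; 0.133% higher and 0.424% lower). The other 5 fits gave 5 probe sets without no-antibiotic replicate 5 (0.0255%), 3 without vancomycin replicate 13 (0.0153%), 2 without no-antibiotic replicate 1 (0.0102%) and 1 without vancomycin replicate 14 (0.00511%). Without no-antibiotic replicate 2, 0 passed in limma and 2681 had an unadjusted p under 0.05. The calls made without replicate 3 and those made without replicate 11 shared 34 probe sets, 15.7% of the first and 31.2% of the second. Of the 19505 genes, 2 passed in 4 of the 7 fits, Ly6g6c and Fam162b, 34 passed in 2, 260 in 1, and 0 in 5 or more.

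**Figure D3:**
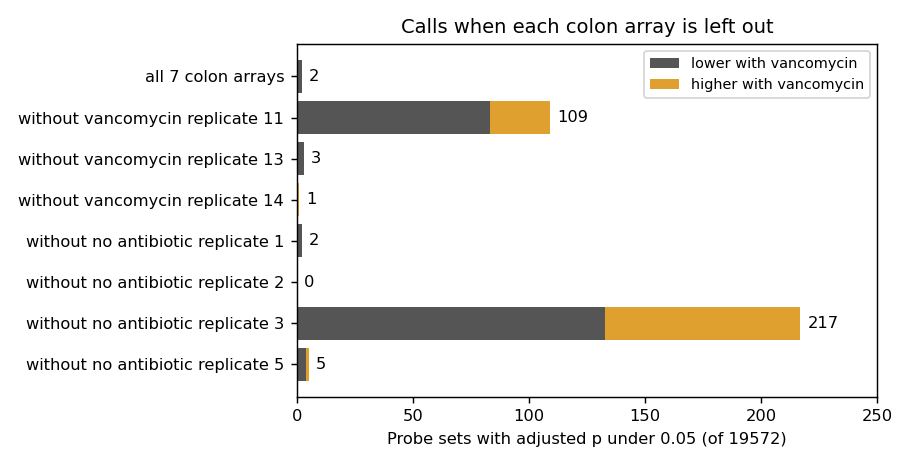
Number of probe sets past the threshold with all 7 colon arrays and with each left out in turn, lower in dark grey and higher in orange. The 109 and 217 calls come from the fits without vancomycin replicate 11 and without no-antibiotic replicate 3.

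Gene by gene, vancomycin replicate 11 and no-antibiotic replicate 3 were, within their groups, the arrays most often nearest to the other group. Some array of each group is always the nearest, so only the sizes of the shares carry information. Among the 1315 probe sets with higher treated values and no overlap, vancomycin replicate 11 was the treated array nearest to the controls in 47.9%, and no-antibiotic replicate 3 the control nearest to the treated arrays in 43.3%. Among the 1090 lower ones the shares were 52.8% and 44.2%. The other arrays held between 15.7% and 30.8% in each direction.

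Ly6g6c kept its call without vancomycin replicate 11 and without no-antibiotic replicates 1, 3 and 5. It had adjusted p of 0.0666, 0.0661 and 0.0501 without vancomycin replicate 13, vancomycin replicate 14 and no-antibiotic replicate 2, with changes between -1.84 and -1.51 over the 7 fits. Fam162b behaved likewise, with 0.0754, 0.0661 and 0.0548 in those fits and changes between -0.99 and -0.895. Both sizes moved little, while the adjusted p crossed the threshold. Srm (-1.16 without vancomycin replicate 11 and -1.04 without no-antibiotic replicate 3), Ffar4 (-2.775 and -2.58), Luc7l2 (0.72 and 0.78), Nectin1 (-1.04 and -0.90) and Cflar (1.045 and 0.90) passed in both of the 2 fits with many calls. Srm, Ffar4, Luc7l2 and Nectin1 were among the genes named for passing in the most fits, so this restates the choice. The 2 fits share most of their arrays, and each leaves out the array of its group most often nearest the other group.

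Goblet cell genes were lower together. Over all probe sets 53.0% had a higher and 46.9% a lower mean with vancomycin, the background for the counts of each list. Of 18 measured genes of this list all 18 had a lower mean with vancomycin and 13 had an unadjusted p under 0.05, 72.2% against 8.11% of all probe sets, but 0 passed the adjusted threshold. The median change was -0.67, against 0.02 for all probe sets. The list mean was 13.97, 13.75 and 13.07 in vancomycin colons, against 14.43, 14.26, 14.20 and 14.42 in no-antibiotic colons. These means did not overlap, and vancomycin replicate 14 was the lowest. In bulk tissue, fewer goblet cells and less RNA per goblet cell cannot be told apart. Mesothelial genes, from the outer lining of the gut, were highest in the same array, with a list mean of 7.89 against 6.56 to 7.03 in the other 6, and B cell genes were at 9.31 there, against 8.33 to 9.16 elsewhere; their part in the goblet values was not tested. Without replicate 14 the goblet median was -0.49, and with each other colon array left out it ran from -0.75 to -0.63.

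Within the list the size of the change varied. Zg16, a lectin that binds Gram-positive bacteria in the mucus, had 15.97, 16.36 and 14.85 in vancomycin colons, against 17.21, 17.26, 16.64 and 17.12 in no-antibiotic colons (-1.33 ± 0.27 SE, adjusted p = 0.0968). Retnlb, a secreted antibacterial protein, had 14.74, 12.07 and 11.72 in vancomycin colons, against 15.7, 13.74, 14.74 and 14.72 in no-antibiotic colons (-1.88 ± 0.61, adjusted p = 0.185). Vancomycin replicate 11 lay within the range of the controls for Retnlb, and without it the change was -2.83 with an adjusted p of 0.0207. Atoh1, the factor that commits cells to the secretory lineage, was lower by 1.08 ± 0.25 (adjusted p = 0.11), Creb3l1, a secretory pathway factor, by 0.94 ± 0.24 (0.128, and 0.0305 without vancomycin replicate 11) and Tff3, a trefoil peptide, by 0.91 ± 0.27 (0.17). Muc2, the main gel-forming mucin, had 17.5, 16.84 and 16.76 in vancomycin colons, against 17.54, 17.21, 17.46 and 17.58 in no-antibiotic colons, a change of -0.41 ± 0.17 (adjusted p = 0.259). Values of Muc2 and Zg16 lie near the top of the scale, where differences are read as differences on the deposited scale only.

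Enzymes that build the sugar chains of mucins followed the same direction. Of 16 measured, 13 had a lower mean, with a median of -0.57 and 0 past the threshold. An unadjusted p under 0.05 was found for 7, all lower (43.8%, against 8.11% of all probe sets). Gcnt3, which branches mucin glycans, had 10.79, 8.74 and 7.94 in vancomycin colons, against 12.21, 10.45, 10.87 and 11.41 in no-antibiotic colons (-2.08 ± 0.54 SE, adjusted p = 0.138). Galnt12, which starts O-glycosylation, had 11.72, 10.04 and 10.52 in vancomycin colons, against 12.67, 11.83, 11.74 and 12.71 in no-antibiotic colons (-1.48 ± 0.35, adjusted p = 0.119). Both passed without vancomycin replicate 11, at -2.895 (adjusted p = 0.0178) and -1.96 (adjusted p = 0.0207). The median of the list was -0.31 without vancomycin replicate 14 and -0.73 without no-antibiotic replicate 3. C1galt1c1 (-0.92 ± 0.26) and Galnt3 (-0.82 ± 0.24) were also lower without passing. The deep crypt secretory list, which shares genes with the goblet list, had 4 of 5 lower and a median of -0.39.

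Hormone and amine genes of enteroendocrine cells were lower as well, while general granule genes of the same cells had a median nearer zero. Tph1, which catalyses the first step of serotonin synthesis, had 9.34, 8.92 and 8.59 in vancomycin colons, against 10.29, 10.27, 9.81 and 10.7 in no-antibiotic colons (-1.32 ± 0.22 SE, adjusted p = 0.0968). Pyy, peptide YY, had 12.47, 11.7 and 12.33 in vancomycin colons, against 13.33, 13.87, 12.65 and 13.36 in no-antibiotic colons (-1.14 ± 0.27, adjusted p = 0.119). Gcg, which encodes glucagon-like peptides, had 13.71, 10.95 and 11.99 in vancomycin colons, against 14.21, 12.84, 12.97 and 14.02 in no-antibiotic colons (-1.29 ± 0.52, adjusted p = 0.25). The groups did not overlap for Tph1 and Pyy and did for Gcg. Insl5 was lower by 0.56 ± 0.20 (adjusted p = 0.222). Of 14 hormone and amine genes 9 had a lower mean, and the median was -0.30, or -0.11 without vancomycin replicate 13. Lower with an unadjusted p under 0.05 were 6 (42.9% of the list, against 8.11% of all probe sets). Among 19 granule and fate genes, 14 had a lower mean, 1 with an unadjusted p under 0.05 (5.26% of the list). The granule and fate median was -0.11, or 0.00 without vancomycin replicate 13 and no-antibiotic replicate 2. Chga, chromogranin A, had 10.16, 9.26 and 9.47 in vancomycin colons, against 9.85, 10.01, 9.79 and 10.22 in no-antibiotic colons (-0.34 ± 0.22, adjusted p = 0.465).

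Tph1 differed between the tissues. In the ileum it had 8.12, 8.24 and 7.89 with vancomycin, against 7.5, 6.96 and 7.43 without, a change of 0.79 ± 0.24 (SE) in the opposite direction that did not pass (adjusted p = 0.233). The colon change minus the ileum change was -2.10 ± 0.33 (adjusted p = 0.0184). Across all probe sets 37 (0.189%) passed this test of the difference. For Tph1 it was lost without vancomycin replicate 13, vancomycin replicate 14 or no-antibiotic replicate 1 (adjusted p = 0.0721, 0.0665 and 0.0533).

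Fatty acid receptors did not share 1 direction. Ffar2, a receptor for short-chain fatty acids, had 9.24, 7.96 and 8.56 in vancomycin colons, against 10.15, 9.24, 9.35 and 10.21 in no-antibiotic colons (-1.15 ± 0.30 SE, adjusted p = 0.139), and passed without vancomycin replicate 11 (-1.48, adjusted p = 0.0491). Ffar3, the other short-chain receptor, was higher by 0.34 ± 0.16 (adjusted p = 0.317). Over the 13 genes of the list with transporters, 5 had a higher and 8 a lower mean and the median was -0.09. Genes of fatty acid oxidation, ketogenesis and PPAR targets had 14 of 22 lower and a median of -0.185, with Ppargc1a, a coactivator of mitochondrial genes, higher by 0.58 ± 0.16 (adjusted p = 0.157) and Cpt1a, which admits fatty acids to mitochondria, lower by 0.47 ± 0.16 (adjusted p = 0.197). Angptl4, a PPAR target that inhibits lipoprotein lipase, had 7.38, 7.25 and 7.57 in vancomycin colons, against 7.62, 7.44, 7.76 and 6.65 in no-antibiotic colons, a change of 0.03 ± 0.39 (adjusted p = 0.976).

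Colonocyte, transport and bile acid genes were mixed. Surface colonocyte genes had 12 of 18 lower and a median of -0.22, with changes of single genes from -2.41 to 1.86. Car1 was lower by 0.90 ± 0.27 SE (adjusted p = 0.174) with no overlap. Ion and water transport genes (9 higher and 13 lower of 22) had changes from -1.955 to 1.86. Their median of -0.10 turned to 0.08 without vancomycin replicate 11 and to 0.11 without vancomycin replicate 13 and no-antibiotic replicate 2. Kcnn4, a potassium channel, had 9.93, 9.55 and 9.44 in vancomycin colons, against 10.93, 10.84, 10.52 and 11.14 in no-antibiotic colons (-1.22 ± 0.26, adjusted p = 0.0968). Nr3c2, the mineralocorticoid receptor, was higher by 0.72 ± 0.21 (adjusted p = 0.16), and Hsd11b2, which inactivates glucocorticoids beside that receptor, was lower by 1.12 ± 0.35 (adjusted p = 0.178). The bile acid list had 10 of 16 higher and a median of 0.225, which was 0.36 without vancomycin replicate 11 and 0.12 without vancomycin replicate 13 or 14. Without vancomycin replicate 13 and no-antibiotic replicate 2 it was 0.045, close to the 0.02 of all probe sets. Its receptors Nr1h4 (0.61 ± 0.20), Nr1i2 (0.51 ± 0.22) and Vdr (0.33 ± 0.13) were higher without overlap, and Slc10a2, the bile acid transporter, was lower by 0.97 ± 0.31. None of these 4 passed.

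Most growth-related lists had medians below that of all probe sets, with sizes that moved with the arrays in the fit. Cell cycle and DNA replication genes had 15 of 18 lower and a median of -0.22. Lower with an unadjusted p under 0.05 were 8 (44.4% of the list, against 8.11% of all probe sets). The list mean was 10.16, 10.98 and 10.30 in vancomycin colons, against 10.67, 11.09, 10.67 and 11.09 in no-antibiotic colons, so vancomycin replicate 13 overlapped the controls. Its median was -0.11 without vancomycin replicate 11 and -0.515 without vancomycin replicate 13. Cdk1, the mitotic kinase, had 9.82, 10.88 and 9.56 in vancomycin colons, against 11.46, 11.75, 10.27 and 11.64 in no-antibiotic colons (-1.19 ± 0.37 SE, adjusted p = 0.175). Myc, a growth-promoting transcription factor, was lower by 0.93 ± 0.33 (adjusted p = 0.205), and ribosome biogenesis genes and MYC targets had 14 of 18 lower (median -0.16, and -0.04 without vancomycin replicate 14). Proteasome subunits had 29 of 38 lower (median -0.26, and -0.145 without vancomycin replicate 14), the most marked being Psmd5 (-0.88 ± 0.23, adjusted p = 0.142). Of the 38, 8 were lower with an unadjusted p under 0.05 (21.1%, against 8.11% of all probe sets and 14.7% of the bright class described below). Unfolded protein response genes had 12 of 15 lower (median -0.23, and -0.125 without vancomycin replicate 11), and aminoacyl-tRNA synthetases 11 of 19 lower, with Mars1 at -0.74 ± 0.21 (adjusted p = 0.157). The median of the synthetases was -0.05, but 0.09 without vancomycin replicate 14, 0.02 with array weights and -0.22 without vancomycin replicate 13 and no-antibiotic replicate 2. Beside Srm, the 15 polyamine genes had 6 higher and 9 lower means and a median of -0.08, or -0.0025 without vancomycin replicate 14. The bright class of probe sets described below had a median of -0.09. After a further quantile normalization within each tissue, medians were -0.14 for cell cycle genes, -0.16 for proteasome subunits and -0.12 for unfolded protein response genes. They were then -0.16 for ribosome biogenesis genes and MYC targets, 0.03 for polyamine genes and 0.04 for the synthetases.

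Splicing factors stood on the other side. Of 23 genes for SR proteins, CLK kinases and other splicing factors, 16 had a higher mean, 10 with an unadjusted p under 0.05 (43.5% against 7.76% of all probe sets), 0 were lower at that level, and the median was 0.21, between 0.17 and 0.24 with each colon array left out. The list mean was 13.39, 13.45 and 13.53 in vancomycin colons, against 13.23, 13.21, 13.13 and 13.24 in no-antibiotic colons, without overlap. Luc7l3, a relative of Luc7l2, had 14.26, 14.5 and 14.38 in vancomycin colons, against 13.66, 13.55, 13.54 and 13.29 in no-antibiotic colons (0.87 ± 0.19 SE, adjusted p = 0.0968). Ddx17, an RNA helicase, was higher by 0.60 ± 0.15 (adjusted p = 0.133) and Tia1, an RNA-binding protein, by 0.65 ± 0.18 (adjusted p = 0.157). The 358 zinc finger genes named Zfp had 223 higher and 135 lower means and a median of 0.08. With an unadjusted p under 0.05, 44 were higher (12.3%, against 7.76% of all probe sets) and 13 lower (3.63%, against 8.11%). Clock genes had 10 of 17 higher (median 0.12), with Nr1d2 at 0.75 ± 0.21 and Nfil3 at -0.95 ± 0.23, neither past the threshold.

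Interferon-stimulated genes, which cells switch on after sensing interferon or nucleic acids, were lower in 19 of 20 cases, with a median of -0.45. An unadjusted p under 0.05 was found for 5, all lower (25%, against 8.11% of all probe sets). The list mean was 7.375, 7.74 and 7.84 in vancomycin colons, against 8.48, 8.12, 8.22 and 7.99 in no-antibiotic colons. It did not overlap, and here vancomycin replicate 11 was the lowest array and not the one nearest the controls. Irf7, the transcription factor that amplifies type I interferon, had 7.99, 8.4 and 9.01 in vancomycin colons, against 11.75, 10.14, 10.85 and 9.72 in no-antibiotic colons (-2.15 ± 0.57 SE, adjusted p = 0.139). Rtp4 was lower by 1.12 ± 0.39 (adjusted p = 0.202), Bst2, which tethers viruses to the cell, by 1.04 ± 0.40 (0.233) and Isg15, a ubiquitin-like modifier, by 0.83 ± 0.35 (0.278). The median was -0.28 without vancomycin replicate 11 and between -0.55 and -0.39 without any other colon array.

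Lists tied to interferon gamma and antigen presentation had medians near that of all probe sets with the 7 colon arrays. Interferon gamma GTPases and chemokines had 9 of 17 higher (median 0.05), class I presentation 5 of 12 (-0.04) and class II presentation 6 of 10 (0.03). The class II median was -0.20 without vancomycin replicate 14 and 0.185 without vancomycin replicate 13 and no-antibiotic replicate 2. Nos2, the inducible nitric oxide synthase, had 7.28, 8.41 and 7.65 in vancomycin colons, against 7.14, 6.97, 8.16 and 8.18 in no-antibiotic colons, a change of 0.17 ± 0.35 SE (adjusted p = 0.853) whose sign turned with the arrays left out. In the ileum Nos2 had 8.42, 9.43 and 9.28 with vancomycin, against 12.52, 12.76 and 12.35 without, and the difference between the tissues' changes was 3.67 ± 0.51 (adjusted p = 0.0108). Among 20 epithelial genes that respond to bacteria, 14 had a higher mean. An unadjusted p under 0.05 was found for 3 of the lower ones (15% of the list, against 8.11% of all probe sets). Pla2g2a, a secreted antibacterial phospholipase, was lower by 1.18 ± 0.32 (adjusted p = 0.146), Ido1, which degrades tryptophan, by 0.94 ± 0.37 (0.244), and Reg3g, an antibacterial lectin, by 1.03 ± 0.44 (0.276). Reg3g ranged from 6.98 to 7.82 in vancomycin colons and from 7.27 to 9.64 in no-antibiotic colons, so its groups overlapped, and Reg3b (-0.44 ± 0.41, adjusted p = 0.626) overlapped too.

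Among leukocyte lists, that of plasma cells had the lowest median. Of 11 genes 10 had a lower mean, and the median was -0.41. Lower with an unadjusted p under 0.05 were 4 (36.4% of the list, against 8.11% of all probe sets). Jchain, the joining chain of secreted IgA, had 14.17, 13.79 and 12.18 in vancomycin colons, against 14.7, 14.71, 14.42 and 14.96 in no-antibiotic colons (-1.32 ± 0.43 SE, adjusted p = 0.185). Xbp1, a secretory cell factor that goblet cells use too, was lower by 0.52 ± 0.16 (adjusted p = 0.181), and Mzb1, a chaperone of antibody secretion, by 0.89 ± 0.40 (adjusted p = 0.3). The list median was -0.25 without vancomycin replicate 14, which had the lowest Jchain. T cell genes had 7 of 15 higher (median -0.0025), B cell genes 9 of 15 (0.04) and cytotoxic and intraepithelial lymphocyte genes 13 of 17 (0.18). The B cell median was -0.315 without vancomycin replicate 14, 0.255 without vancomycin replicate 11 and 0.315 without vancomycin replicate 13 and no-antibiotic replicate 2. The T cell median was 0.19 without vancomycin replicate 11. Macrophage and dendritic cell genes had 13 of 21 higher (median 0.05), but Mrc1, the mannose receptor of resident macrophages, had 9.57, 9.75 and 9.23 in vancomycin colons, against 10.59, 10.37, 10.2 and 10.95 in no-antibiotic colons (-1.01 ± 0.20, adjusted p = 0.0968), and Cx3cr1, a receptor of the same cells, was lower by 0.78 ± 0.20 (adjusted p = 0.133).

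Mcpt1, a protease of mucosal mast cells, was higher in the colon, with 8.73, 9.35 and 8.27 in vancomycin colons, against 7.82, 8.02, 7.56 and 7.28 in no-antibiotic colons (1.11 ± 0.25 SE, adjusted p = 0.102). In the ileum it was lower with vancomycin, 8.09, 8.31 and 7.58, against 9.16, 9.13 and 8.87 without, and the difference between the tissues passed (2.17 ± 0.37, adjusted p = 0.0349), though not without vancomycin replicate 13 or no-antibiotic replicate 1, 3 or 5 (adjusted p from 0.0594 to 0.0753). Over the whole mast cell list 6 of 10 genes had a higher mean in the colon, with a median of 0.025. Itgae, an integrin of lymphocytes within the epithelium, gave a difference between tissues of 1.76 ± 0.27 (adjusted p = 0.0182, and 0.0609 without vancomycin replicate 13), with a colon change of 0.39 ± 0.18 (adjusted p = 0.325) and an ileum change of -1.37 ± 0.20 (adjusted p = 0.00432), 1 of the 105 probe sets (0.536%) past the threshold in the ileum.

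Of the supporting tissues, fibroblast and matrix genes had 11 of 13 lower and a median of -0.30. Of the 13, 3 were lower with an unadjusted p under 0.05 (23.1%, against 8.11% of all probe sets and 14.7% of the bright class described below). Mmp2, a matrix protease, had 11.2, 10.12 and 9.9 in vancomycin colons, against 11.48, 11.72, 11.23 and 12.43 in no-antibiotic colons (-1.31 ± 0.35 SE, adjusted p = 0.146). Fbln1, a matrix glycoprotein, was lower by 1.05 ± 0.29 (adjusted p = 0.154) and both passed without vancomycin replicate 11, at -1.705 and -1.51 (adjusted p = 0.049 and 0.0178). The list median was -0.455 without that array and -0.19 without vancomycin replicate 13, 1 of the 2 arrays with high Hoxd genes and lower smooth muscle values. Smooth muscle genes had 8 of 14 higher with a median of 0.02, endothelial genes 5 of 14 (-0.11), neuron, glia and pacemaker genes 6 of 16 (-0.11), adipocyte genes 6 of 9 (0.12) and mesothelial genes 4 of 5 (0.24). These medians turned with single arrays: without vancomycin replicate 14 they were -0.17 for mesothelial and -0.12 for adipocyte genes, without vancomycin replicate 11 -0.165 for smooth muscle genes, without vancomycin replicate 13 0.03 for neuron, glia and pacemaker genes, and without no-antibiotic replicate 5 0.02 for endothelial genes. Without vancomycin replicate 13 and no-antibiotic replicate 2 together, a check added after the data were seen, the medians were -0.71 for goblet cell genes, -0.54 for interferon-stimulated genes, -0.45 for cell cycle genes, -0.41 for plasma cell genes, -0.24 for fibroblast genes, -0.17 for hormone and amine genes and 0.17 for splicing factors.

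**Figure D4:**
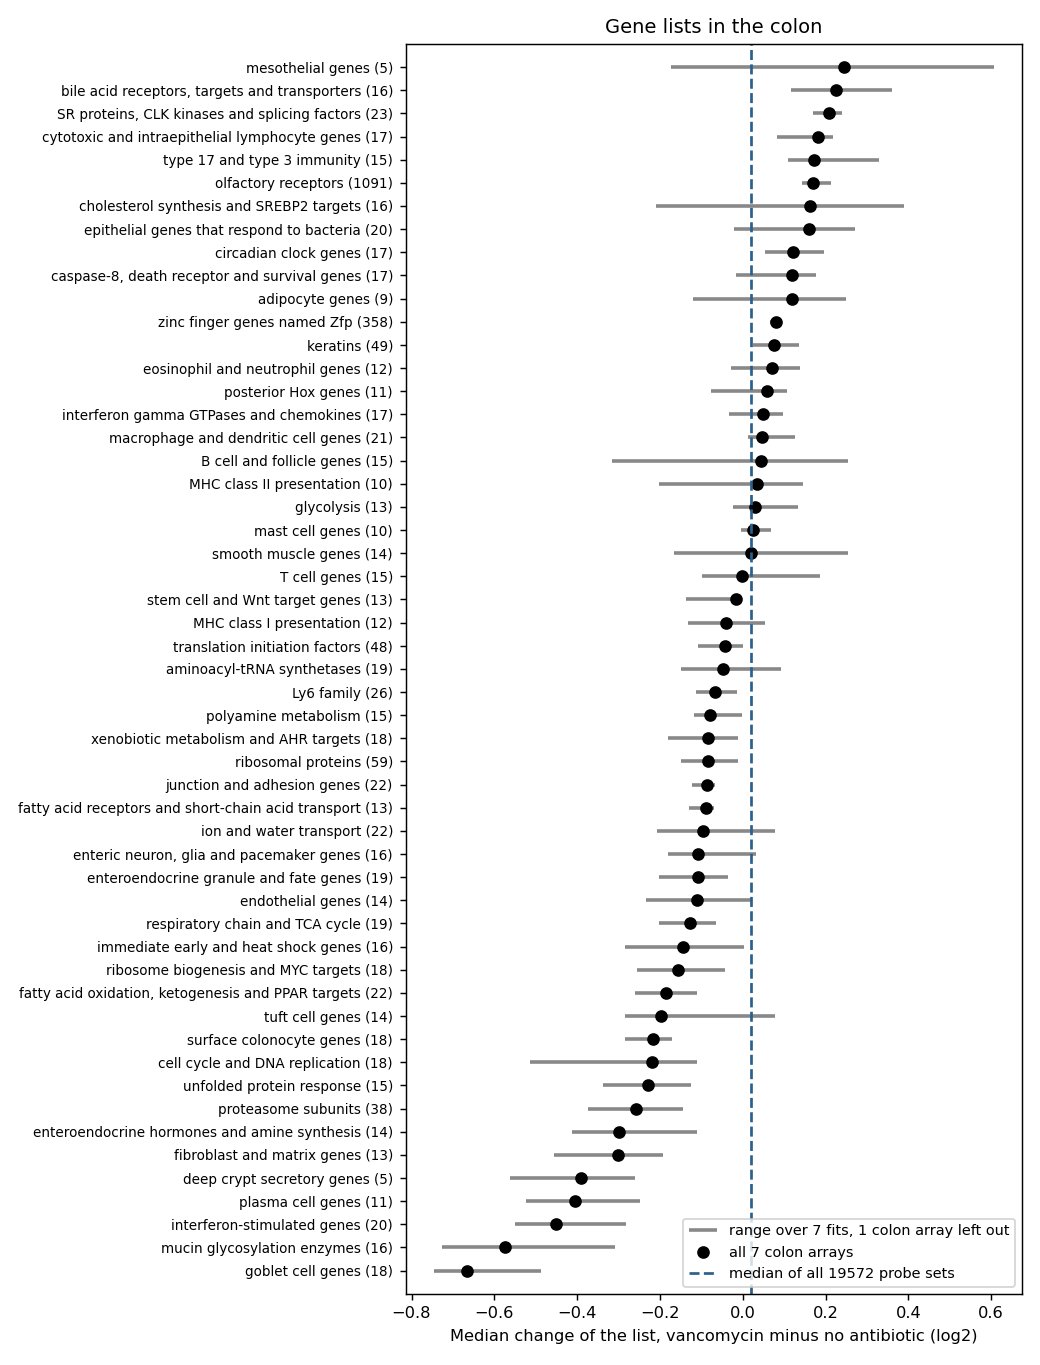
Median change of each gene list in the colon (vancomycin minus no antibiotic, log2), with the number of measured genes in parentheses; points are the fit with all 7 colon arrays and grey lines the range over the 7 fits that leave 1 colon array out. Goblet cell genes lie lowest at -0.67 and the dashed line marks the median of all probe sets at 0.02.

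The direction of a change was related to the level of the probe set. The named probe sets were divided by mean level into 3 equal classes, in which the median change was 0.10 for the dim class, 0.01 for the middle class and -0.09 for the bright class. An unadjusted p under 0.05 was found as higher in 8.61% and as lower in 1.53% of the dim class, and as higher in 7.45% and as lower in 14.7% of the bright class. Olfactory receptor genes, which the colon is not known for, had 897 of 1091 higher means and a median of 0.17. The SD over the named probe sets of an array was 2.78 to 2.85 in vancomycin colons and 2.83 to 2.94 in no-antibiotic colons. When the arrays were quantile-normalized once more within each tissue, the medians of the 3 classes were 0.01, 0.02 and 0.00, that of the olfactory receptors 0.09 and that of the goblet cell genes -0.59, while splicing factors had 0.29 and interferon-stimulated genes -0.46. Of the 18 goblet cell genes 16 were in the bright class, and 15 of these had a change below its median.

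**Figure D5:**
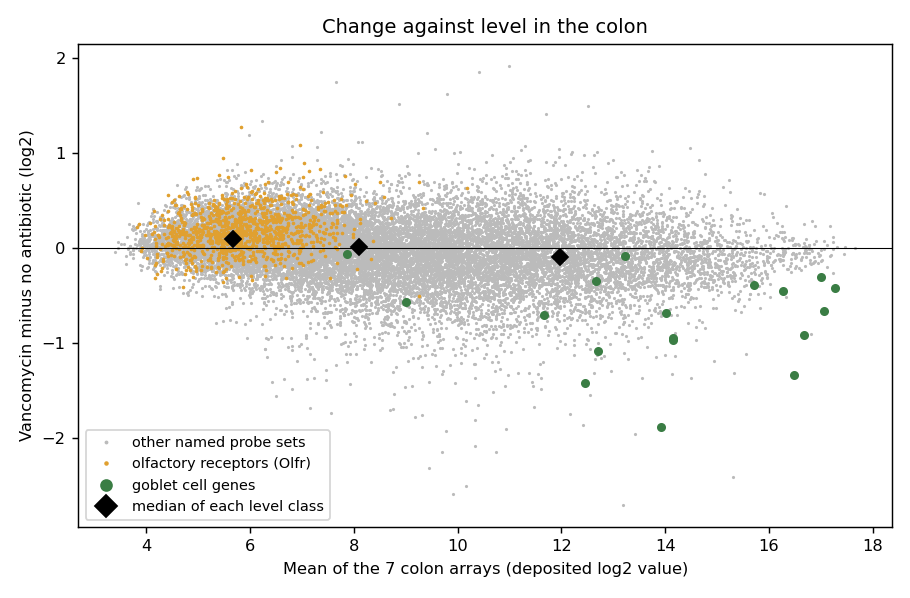
Change with vancomycin (log2) against the mean of the 7 colon arrays for each named probe set, with olfactory receptors in orange, goblet cell genes in green and the median of each level class as diamonds. The diamonds run from 0.10 in the dim to -0.09 in the bright class, and the goblet cell genes lie below zero.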

How the data were processed

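Biotin-labelled RNA of colon and ileum was read on 1-colour Affymetrix mouse arrays, according to the labels. The authors deposited log2 values. The submitters' processing notes name RMA, a method that corrects background, equalizes the arrays by quantiles and summarizes the probes of a set, and version 1.4.1.46 of Affymetrix Expression Console, without stating the role of each. Values ran from 3.01 to 18.25, with 437 probe sets reaching above 16, the limit of a 16-bit scanner. The annotation gave 19572 probe sets 1 symbol, 0 several and 9274 none.

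A model of 4 group means was fitted to all 13 arrays with lmFit and eBayes (limma 3.58.1 under R 4.3.3), so the ileum shares in the estimate of the spread. Benjamini-Hochberg adjustment of the colon contrast, and of its difference from the ileum contrast, ran over the named probe sets. The number of arrays limits precision, with a median 95% half-width of 0.38 for a change, and the calls also moved with which arrays entered. In simulated data for the colon comparison over 19572 probe sets, changes of 1, 2 and 3 were recovered in 74.6%, 97% and 98.5% of cases and 7.22% of calls were false. The simulated noise was drawn separately for each probe set and array. It holds none of the differences shared across genes between arrays described above, so these rates are not those of the real comparison. Lists (54, with 740 of 814 entries measured) were described by counts and medians. Named are genes past the threshold, the 12 per direction with the smallest p and the 6 with the largest change at unadjusted p under 0.01, both among genes whose groups do not overlap and leaving out predicted genes, the 10 called in most leave-one-out fits, up to 4 members per list by p, and a short set of colon genes; members of some large lists were counted only. The members, lists and rules were chosen with earlier results of these data known.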

Additional observations from a re-analysis of the deposited data

Results flagged for a closer look

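In 7 of 227 named genes and lists, 1 of the 4 no-antibiotic colons lay far from the other 3, by Dixon's ratio, which divides the gap to the nearest array by the range. Chance flags about 1 in 20 groups, so 7 of 227 is fewer than chance alone would flag, and the items below are described only. For Acads the ratio was 0.848, with replicate 2 low (9.22 against 9.5 to 9.55), and for Ly6g6d it was 0.84, with replicate 5 low. For Csf1r, the macrophage growth factor receptor, it was 0.886, with replicate 5 at 8.73 and the others at 7.85 to 7.95, and the macrophage and dendritic cell list followed at 0.965, with 8.39 against 8.04 to 8.06. The list of enteroendocrine hormones and amine synthesis gave 0.892, with replicate 1 high, the mast cell list 0.832, with replicate 2 high, and the immediate early and heat shock list 0.94, with replicate 1 low at 9.14 against 9.49 to 9.52.

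In 5 of the 173 named genes the colon change differed from the ileum change by the test of the difference itself in limma. The adjusted p was 0.0108 for Nos2, 0.0182 for Itgae, 0.0184 for Tph1, 0.0349 for Mcpt1 and 0.0442 for Ly6g6c. Of all 19572 probe sets 37 passed that test (0.189%). Ly6g6c, Tph1 and Mcpt1 were named for their colon p or colon change, which is part of the difference tested, so the count of 5 is favoured by the choice. The difference for Ly6g6c and Tph1 was negative, and that for Nos2, Itgae and Mcpt1 positive.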

How the results depend on the processing

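With 1 colon array left out the colon count ran from 0 to 217, with 0 to 84 higher and 0 to 133 lower, and the count for the difference between tissues from 12 to 55 against 37. The colon count was 0 in the fit of the 7 colon arrays alone (2945 with an unadjusted p under 0.05 in limma) and with array medians subtracted (2965), 38 with array weights (15 higher, 23 lower), and 1 without the dimmest 33.3%, where Fam162b is not tested and Ly6g6c passes. With trend or robust eBayes, quantile normalization again, all probe sets or the replicate block it stayed at 2. The difference between tissues had 191 calls with array weights and 18 over all probe sets. Among alternatives added after seeing the data, leaving out vancomycin ileum replicate 11 gave 49 colon calls (17 higher, 32 lower) and 84 differences, and leaving out vancomycin replicate 13 and no-antibiotic replicate 2 gave 0 (0 lower; 2083 unadjusted) and 1. Ly6g6c and Fam162b had adjusted p of 0.0875 and 0.112 in the colon alone, 0.0597 each with medians subtracted, and 0.0887 and 0.18 without replicates 13 and 2. Nos2 turned to -0.15 without vancomycin replicate 13, -0.05 without no-antibiotic replicate 2 and -0.36 without both, in a range up to 0.42. Angptl4 turned to -0.0143 with array weights, -0.0170 with quantile normalization, -0.05 without vancomycin replicate 14 and -0.21 without no-antibiotic replicate 5, in a range up to 0.16. The cause of these shifts was not tested. Of 3097 values of named genes under these settings, 2977 kept direction and side of the threshold, 101 newly passed, 12 lost the call and 7 turned. No paired analysis was possible within the colon because the 2 groups share no replicate number. Numbers shared by colon and ileum were used as a random replicate block (correlation 0.0975), which left 2 calls; deviations of same-numbered arrays correlated at 0.236, 0.176 and 0.107 with vancomycin and at 0.075, 0.030 and -0.016 without, so not every pair passed 0.1. Each of the 3 vancomycin colons correlated best with the ileum of its own number, as did 1 of 3 no-antibiotic colons, a hint from the data and not from the design. With the block 43 differences between tissues passed, against 37, and those of Nos2, Itgae, Tph1, Mcpt1 and Ly6g6c remained (adjusted p from 0.00526 to 0.0243). Without vancomycin replicate 13 and no-antibiotic replicate 2 all 5 were lost (0.0644 to 0.162).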
